A study of Vigna radiata with 42 samples.

Results

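In the mung bean cultivar Weilv 9 (Vigna radiata), 110 genes of the leaf stood above their starting level at every time measured after salt, both in seedlings that had met salt before and in seedlings that had not. They were chosen by a rule on the measured values. The mean of log2(value + 1) over the 3 libraries of a group had to exceed the mean of the same treatment's 0 h group by at least 0.5 at all 6 later times in both treatments. The mean value also had to reach 5 in at least 1 group. The table holds 28740 gene IDs, of which 16045 met the level part, and all 110 genes that met the change part were among them. All 110 also passed the filter on low values used for testing (1 or more in no fewer than 3 libraries), as did 19753 genes in all. The same thresholds turned downward found 128 genes. One treatment alone gave 223 genes raised at every time in T1 and 286 in T2, so the 110 made up 49.3% of the first list and 38.5% of the second. Without T1 0 h replicate 2, a library that stood apart from its group, the rule found 97 genes, 86 of them among the 110. Since all 12 changes from 0 h chose the members, those changes are described here without a test.

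T1 seedlings had spent 24 h in 100 mM NaCl and then 48 h in nutrient solution without salt before 100 mM NaCl was given again. T2 seedlings were given 100 mM NaCl once. The ages of the T1 and T2 seedlings at 0 h are not given here, and the part of age in a difference between T1 and T2 was not tested. The first fully expanded true leaves were taken when this last salt began, which is 0 h, and then after 1, 3 and 6 h and after 12, 24 and 48 h, with 3 libraries in each of 14 groups and 42 libraries in all. All seedlings were kept under the same daily cycle of light and dark. No group after 0 h was without salt. The effects of salt, plant age and time of day in that cycle therefore cannot be told apart in a change from 0 h. The samples at 24 and 48 h do share their time of day with 0 h. The labels call the libraries biological replicates, but the sources used here do not say whether each came from 1 plant or from several, so p-values measure the spread between these libraries.

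Salt reaches a leaf as a shortage of water and as sodium and chloride carried up from the root. Leaf cells are known to answer with abscisic acid signalling, with compatible solutes and protective proteins, with ion transport and with the detoxification of reactive oxygen, and part of this response lasts for as long as the salt does. Genes that stay raised through a time course can belong to any of these. The table gives gene IDs only, and 0 of them matched the 30003 entries of the reference gene list (assembly Vradiata_ver6). No gene name, function or sequence is therefore given for any of the 110, the labelled tissue was not checked against leaf marker genes, and the genes are described by their courses.

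The values are a normalized expression signal with depth divided out, and the columns sum to between 783218 and 1228250. The inverse of the step between low values ran from 0.785 to 1.36 times the median library. It mixes sequencing depth with any further scaling of the columns, so it is not a relative depth by itself. In each library 17235 to 18913 genes had a value of at least 1. Signal from gene IDs with the prefix Pt was 5.38% in T1 24 h replicate 1, 2.50% in T2 24 h replicate 2 and 2.08% in T2 12 h replicate 3, and under 1% in the other libraries. T1 0 h replicate 2 stood apart: over all genes tested its mean r was 0.923 with the rest of its group, against 0.970 with T2 at 0 h. In all, 6 libraries were closer to another group than to their own. T2 1 h replicate 2 had a mean r of 0.968 with T1 at 1 h and 0.963 with its group, and T1 6 h replicate 3 one of 0.984 with T2 at 6 h and 0.977 with its group. The others were T1 3 h replicate 3, at 0.9787 and 0.9786, and T1 0 h replicates 1 and 3, which with T1 0 h replicate 2 in their group were closer to T1 at 1 h (0.956 and 0.961) than to it (0.954 and 0.953).

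Before salt the 110 genes together held between 0.166% and 0.303% of a library's signal. After 1 h of salt their share was 1.55% ± 0.174 in T2 and 0.652% ± 0.222 in T1 (SD, n = 3), and after 12 h it was 2.94% ± 0.120 and 2.29% ± 0.058. It was 0.786% ± 0.112 in T2 and 1.23% ± 0.451 in T1 at 24 h, and 1.41% ± 0.164 and 1.68% ± 0.214 at 48 h. The share was thus highest at 12 h in both treatments and passed through a low point at 24 h. This sum is carried by a few abundant genes, so the median over the 110 genes of log2(value + 1), each gene centred on its mean over the 42 libraries, was followed as well. It put T1 replicates 1, 2 and 3 at -0.92, -0.23 and 0.03 at 1 h and the T2 libraries at 0.32, 0.53 and 0.32. Replicate 1 of T1 was the lowest library after 0 h, and the groups did not overlap with or without it. On this measure the highest groups were T1 at 48 h, with a mean of 0.87, and T2 at 12 h, with 0.73.

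**Figure D1:**
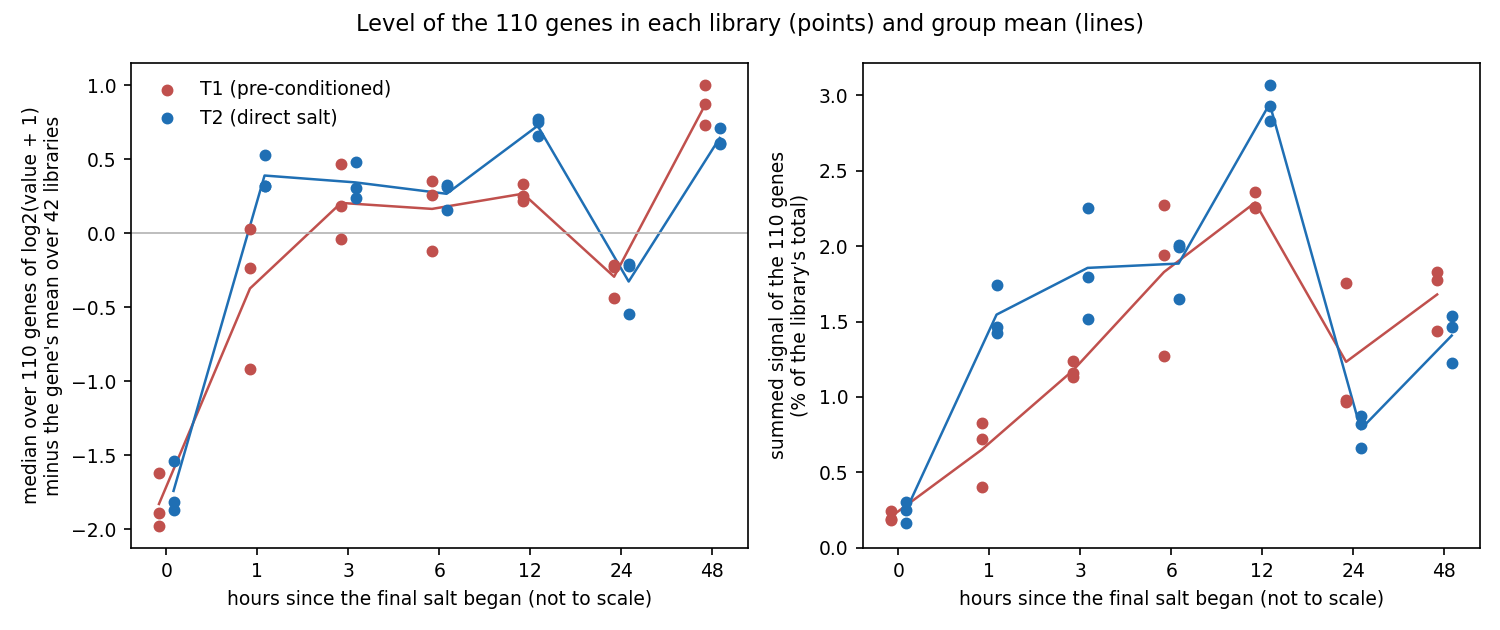
Level of the 110 genes in each library (points) and group means (lines) over 7 times in T1 (red) and T2 (blue), with time not to scale. The left panel shows the median over the genes of log2(value + 1) minus each gene's mean over the 42 libraries, and the right panel their summed signal as a percentage of the library's total. At 1 h the T1 libraries lie below the T2 libraries in both panels, and both treatments dip at 24 h and rise again at 48 h.

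How far the genes rose varied widely. The smallest of a gene's 12 changes had a median of 0.74 on the log2 scale, the largest a median of 3.57, and the distance between them ran from 0.91 to 7.55. Of the 110, 25 were at least 2-fold above 0 h (a log2 change of at least 1) in all 12 later groups, and 4 were at least 4-fold above it. In 42 genes every one of the 36 later libraries lay above every one of the 6 libraries at 0 h. Among all 19753 genes tested 73 (0.37%) did so, and nothing is read from this count because the rule used the same values. Just inside the threshold lay Virad07G0072400 and Virad06G0186700, with smallest changes of 0.52 (T1 6 h) and 0.51 (T1 1 h). Just outside lay Virad07G0016200, at 0.497 (T2 24 h), and Virad07G0095500, at 0.494 (T1 24 h). Many genes were near silence before salt. The mean value at 0 h had a median of 3.94 and was under 1 in 20 genes and at least 100 in 4. After 0 h the median was 35.7, and 22 genes were at 100 or more.

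The median change from 0 h was 1.97 in T2 and 1.31 in T1 at 1 h, and 1.99 and 2.08 at 3 h. It was 1.92 and 1.85 at 6 h and 2.58 and 1.90 at 12 h. At 24 h both treatments were low again, at 1.32 in T2 and 1.38 in T1, and at 48 h they stood at 2.17 and 2.65. The median over all genes tested stayed between -0.01 and 0.03 in these 12 contrasts. The group that came closest to missing the rule was T1 at 1 h for 34 genes and a 24 h group for 35.

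Sorted by the later time at which the mean of the T1 and T2 changes was highest, 40 genes had their peak at 48 h and 27 at 12 h. A further 15 peaked at 1 h and 14 at 6 h, while 13 did so at 3 h and 1 at 24 h. The 48 h genes had a median change of 3.06 in both treatments at 48 h, against 1.69 in T1 and 1.42 in T2 at 24 h. Each class is high at its own time in the mean of T1 and T2 because it was sorted so, and T1 alone need not follow. The 13 genes of the 3 h class had a T2 median of 4.96 at their own time. Their T1 median was only 2.32 then and was higher late in the course, with 4.33 after 48 h. Of the 13, 5 are neighbours on chromosome 7, described below, among which the split of signal is uncertain. Their T2 changes at 3 h were 5.19 to 6.22, against 1.41 to 5.03 in the rest of the class. In T1 these neighbours had changes of 2.07 to 2.96 at 3 h and 4.33 to 5.53 at 48 h. The rest ran from 0.695 to 5.06 in T1 at 48 h, and most of them were lower then than at 3 h. The late T1 rise is thus not a course shared by the class. The 12 h genes stood lower at 1 h, where T1 had a median of 0.87 and T2 one of 1.26, than at 12 h, at 3.97 and 3.86. The 1 h genes had a T2 median of 3.46 and a T1 median of 2.30 at that time. They were high a second time at 48 h, at 2.19 in T2 and 3.23 in T1. Over the 36 libraries after 0 h, the correlation of a gene with the median of the other members had a median r of 0.474 and ran from -0.0018 to 0.893. These r values describe libraries that share their depth and scaling, and no p is given for them.

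**Figure D2:**
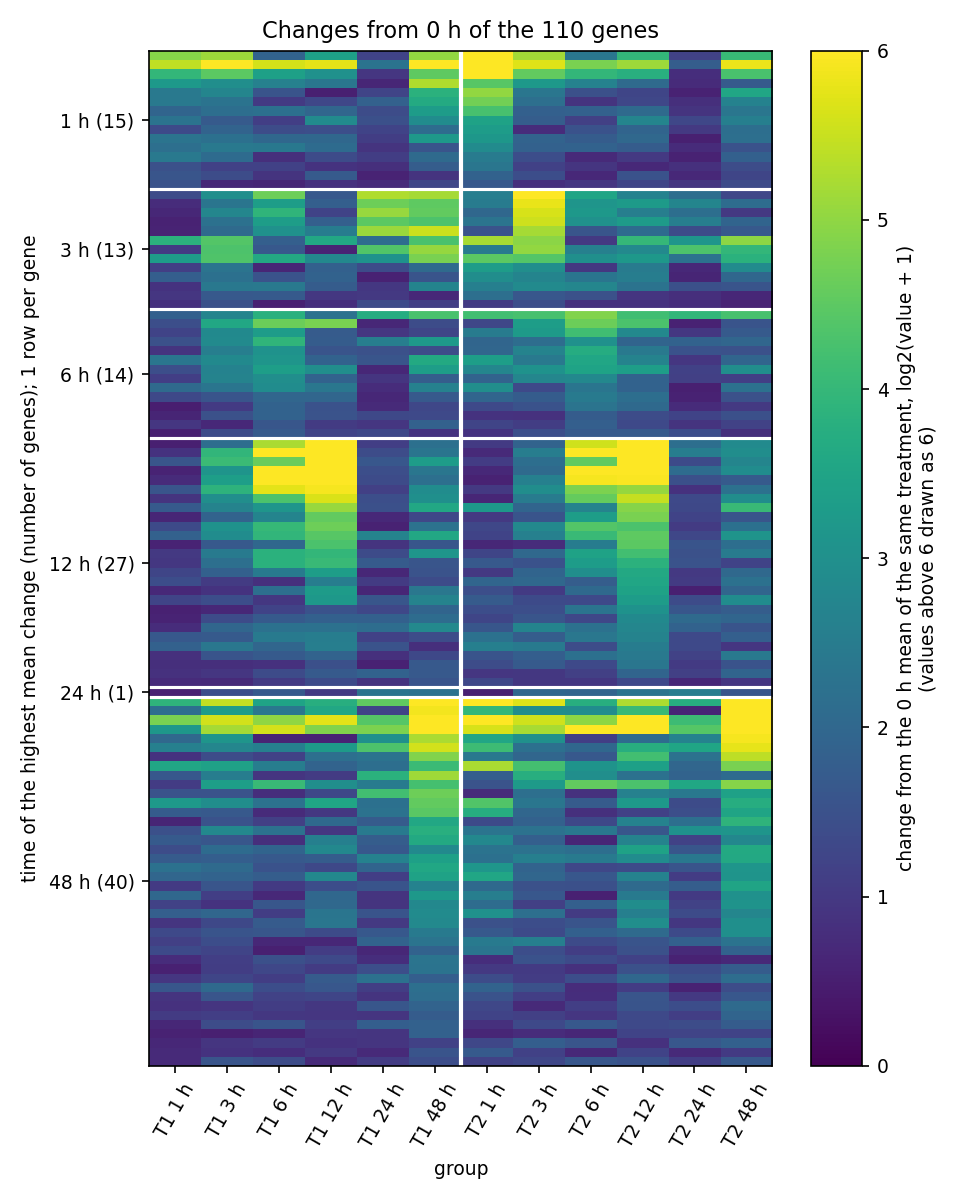
Changes from 0 h of the 110 genes (rows) in the 12 later groups (columns, T1 left and T2 right), as differences of mean log2(value + 1), with changes above 6 drawn as 6. Rows are grouped by the time of the highest mean change, with the number of genes in brackets. The 27 genes of the 12 h class are brightest at 6 and 12 h in both treatments, and the 40 genes of the 48 h class at 48 h, their own times by the sorting.

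The gene with the highest smallest change was Virad03G0145200. In T2 replicates 1, 2 and 3 it stood at 3.76, 2.17 and 1.498 at 0 h and at 298, 324 and 264 at 1 h. At 24 h it was at 57.1, 48.0 and 67.8, and at 48 h at 243, 263 and 297. Even the low point at 24 h lay 4.11 log2 units above the start. In T1 it was at 1.25, 3.33 and 2.50 at 0 h and at 38.9, 113 and 161 at 1 h, so every T1 library at 1 h was below every T2 library. By 48 h the T1 libraries, at 318, 261 and 285, overlapped those of T2.

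Virad08G0131900 had a similar start and a deeper trough. In T2 it stood at 0.541, 0.938 and 0.331 before salt and at 217, 191 and 184 after 1 h. It was down to 20.9, 12.8 and 30.2 at 24 h and back at 484, 502 and 633 by 48 h. Both the early and the late maximum of this gene far exceeded the levels between them. From 24 to 48 h in T2 it rose by 4.67 on the log2 scale (SE 0.41, adjusted p = 1.38e-09 in limma's test). The other 4 genes with the highest smallest changes were Virad10G0244300, Virad06G0280300, Virad06G0114200 and Virad07G0014400. Virad10G0244300 had a value under 1 in each library at 0 h and ranged from 54.3 to 67.4 in T2 and from 0.794 to 43.3 in T1 at 1 h. Virad06G0280300 was already at 12.8 to 20.2 before salt and stood at 325, 583 and 398 in T2 and 105, 152 and 192 in T1 at 1 h. These libraries of T1 and T2 did not overlap in either gene.

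The most abundant member was Virad08G0395800, with values from 548 to 1853 at 0 h. In T2 it stood at 5937, 9518 and 7571 at 1 h, at 7415, 7188 and 6958 at 12 h and at 2327, 2556 and 2316 at 48 h. In T1 it was at 1870.4, 4296 and 4486 at 1 h, at 5475, 5424 and 5237 at 12 h and at 1464, 1483 and 1893 at 48 h. At 6 h its mean was 3286 in T2 and 3850 in T1, between higher means at 3 and 12 h, and every T1 library lay below every T2 library at 1, 12 and 48 h. Virad06G0005700 and Virad09G0008200 were most abundant in the middle of the course. Virad06G0005700 stood at 2879.8, 2565 and 2717 in T2 and 2286, 2534 and 3225 in T1 at 12 h, against 70.5 to 142 at 0 h. Virad09G0008200 reached 2036, 1821 and 2208 in T2 and 1771, 1856 and 1991 in T1 at 12 h and was between 38.6 and 168 at 24 h. Virad10G0234700 was high at 6 h and again at 48 h in T2, where it stood at 4408, 3813 and 2379. The flattest courses were those of Virad03G0299600, Virad10G0227200 and Virad04G0204300, whose 12 changes spanned the smallest ranges. Virad04G0204300 never left the span of 1.26 to 7.53 after 0 h.

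**Figure D3:**
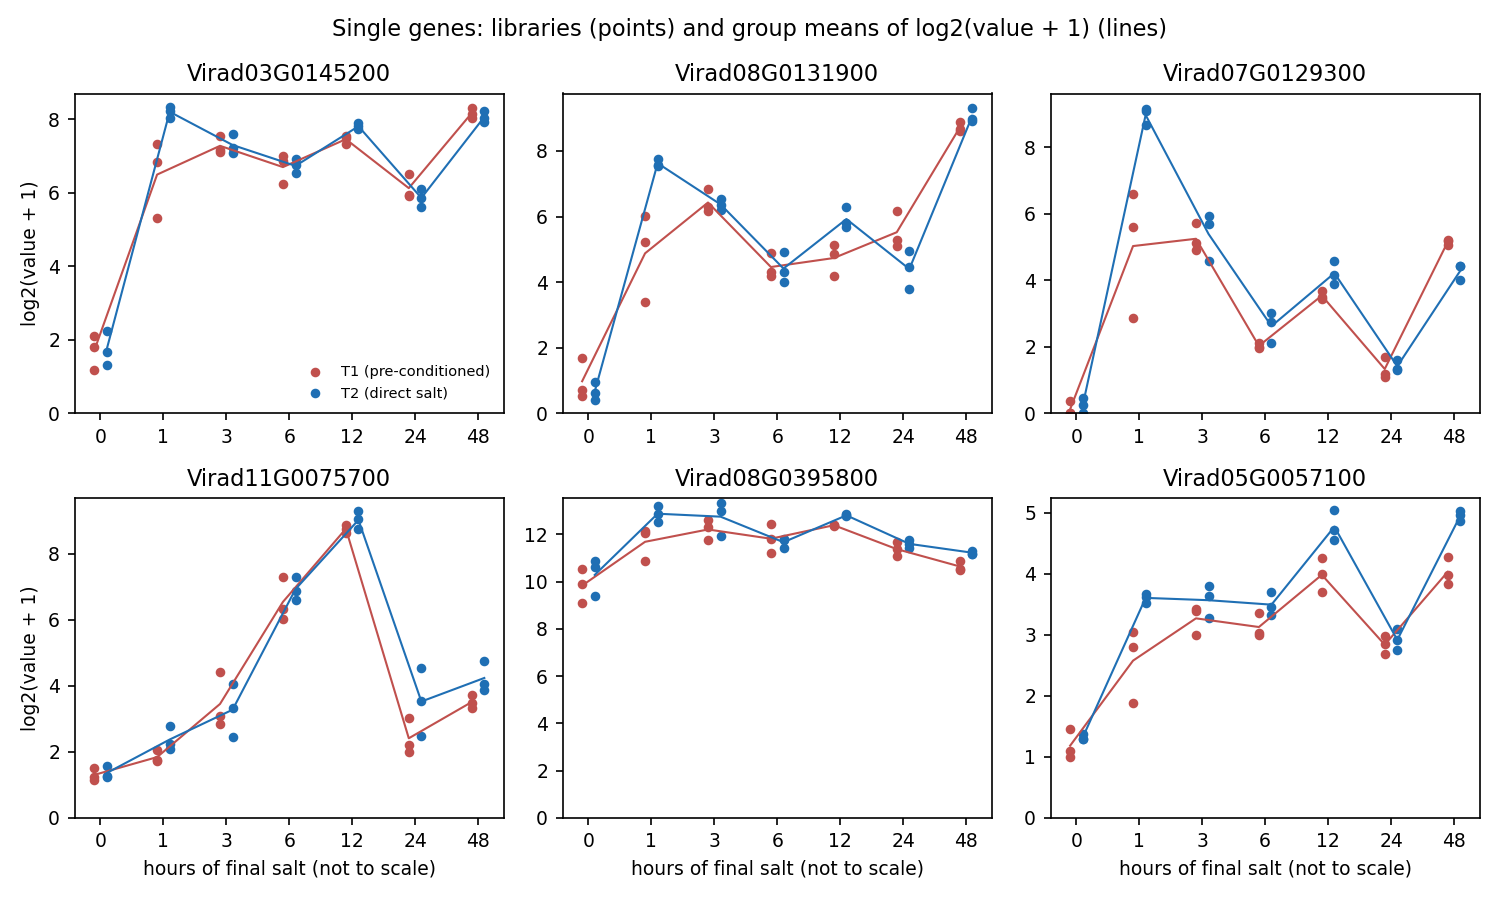
Values of 6 of the genes as log2(value + 1) in each library (points) and group means (lines) in T1 (red) and T2 (blue), with time not to scale. The 6 were picked for display after their values were seen. In Virad07G0129300 the T2 libraries stand far above the T1 libraries at 1 h, Virad11G0075700 has 1 maximum at 12 h in both treatments, and in Virad05G0057100 the T1 libraries lie below the T2 libraries at 48 h.

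T1 was set against T2 at each time. The rule did not use this difference, but it used the group means themselves in their changes from 0 h. Members were chosen as raised in both treatments, so the shares over all genes are given for scale only. At 1 h, 53 of the 110 genes were called lower in T1 and 0 higher (limma on log2(value + 1), two-sided, Benjamini-Hochberg adjusted p under 0.05 over all 19753 genes). Over all genes 8.24% were called at this time, 2.97% higher and 5.28% lower. The median difference of the members, T1 minus T2, was -0.83, with quartiles of -1.37 and -0.34, and 96 of 110 were below 0, while the median of all genes was -0.04. In 63 members all 3 T1 libraries were below all 3 T2 libraries, and in 0 members all were above. Over all genes these shares were 12.4% and 10.5%. With 3 libraries against 3, a permutation test of a single gene cannot give a p under 0.1, so the calls rest on the spread shared over genes and groups.

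The largest difference at 1 h was that of Virad07G0129300. It stood at 6.33, 47.7 and 95.9 in T1 and at 403, 543 and 569 in T2, a difference of -3.94 (SE 0.47, adjusted p = 1.27e-06 in limma's test), after values of at most 0.363 at 0 h. Virad07G0064700 was at 5.64, 36.8 and 53.4 in T1 and 270.4, 276 and 237 in T2, a difference of -3.45 (SE 0.43, adjusted p = 2.74e-06). In both genes T1 replicate 1 was several times lower than the other libraries of its group. In Virad06G0113500 the T1 libraries lay closer together, at 2.60, 3.42 and 6.67, against 39.0, 40.6 and 40.9 in T2 (difference -3.05, SE 0.36, adjusted p = 8.49e-07). Without T1 1 h replicate 1 the differences of the 3 genes were -2.87, -2.53 and -2.82, and 36 members were called lower, 35 of them among the 53. The median difference was then -0.65. Without T2 1 h replicate 2, 45 were called lower, with a median of -0.76. When only the groups at 1 h were fitted, 12 members were called, all lower. Virad07G0129300 and Virad07G0064700 missed the threshold in that fit, at adjusted p of 0.0953 and 0.0871. Shares over all genes were not recorded for these alternative fits.

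**Figure D4:**
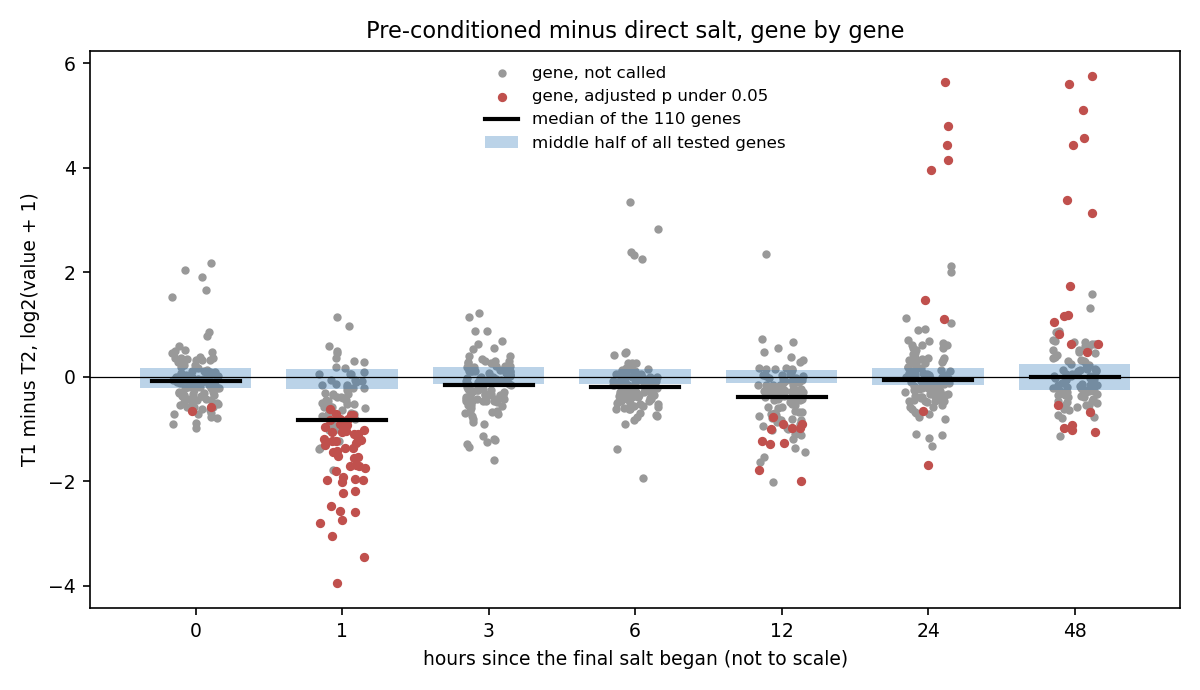
Difference between T1 and T2 in mean log2(value + 1) for each of the 110 genes (points) at 7 times, with called genes in red, the median of the 110 as a black bar and the span between the quartiles of all genes tested as a blue band. The median lies at -0.83 at 1 h and -0.39 at 12 h and near 0 at 24 and 48 h, and 5 genes stand apart above the others at 24 and 48 h.

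At 3 and 6 h limma called 0 of the 110 genes between the treatments, and 19 and 12 had an unadjusted p under 0.05. Shares of all genes at the unadjusted threshold were not recorded. Over all genes 0.446% and 0.0557% were called at these times. At 6 h 0.0405% were called higher and 0.0152% lower. The members' medians were -0.15 and -0.20, so few calls do not show equal levels. The count at 3 h was 2, both lower, when all column totals were made equal.

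At 12 h, 11 of the 110 genes were called, all lower in T1, and 90 had a difference below 0, with a median of -0.39, where 0.835% of all genes were called, 0.491% higher and 0.344% lower. In 50 members all T1 libraries were below all T2 libraries and in 2 all were above, against 9.48% and 11.3% of all genes. Virad02G0189500 stood at 6.85, 4.996 and 1.73 in T1 and at 13.4, 28.5 and 18.7 in T2 (difference -2.01, SE 0.37, adjusted p = 0.00383). Virad07G0027900 was at 10.9, 8.68 and 7.39 in T1 and 25.6, 31.2 and 45.2 in T2 (-1.78, SE 0.40, adjusted p = 0.0219). Virad08G0025400, the only gene whose highest mean change was at 24 h, was at 79.4, 89.4 and 97.7 in T1 and 167, 265 and 238 in T2 (-1.30, SE 0.28, adjusted p = 0.0141). The libraries of T1 and T2 did not overlap in any of the 3. Of the 53 genes called lower at 1 h, which are 48.2% of the 110, 7 were also called lower at 12 h. That is 13.2% of the first list and 63.6% of the second. Leaving out T1 12 h replicate 2 or 3 brought the count to 4 or 3, and leaving out T2 12 h replicate 2 or 3 brought it to 6 or 3. The median stayed between -0.46 and -0.31 when 1 library was left out. Virad02G0189500 missed the threshold without T1 12 h replicate 3 (adjusted p = 0.0709) and in the fit to the 12 h groups alone (0.131). Virad07G0027900 missed it when replicate 2 or 3 of either 12 h group was left out, and Virad08G0025400 without any library of the 2 groups other than T2 12 h replicate 1, at adjusted p of up to 0.191 and 0.103.

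At 24 h the 110 genes showed no common direction, with a median difference of -0.05. Of the 110, 9 were called, 7 higher and 2 lower in T1, while 2.68% of all genes were called, 1.31% higher and 1.37% lower. With every library at the same total, or after quantile normalization, 7 were higher and 4 lower. At 48 h 21 were called, 15 higher and 6 lower, and the median was -0.01. Over all genes 23.6% were called at 48 h, 14% higher and 9.62% lower. In this fit the members were thus called no more often than genes in general. All T1 libraries lay below all T2 libraries in 31 of the 110 members and above them in 32. Over all genes these shares were lower, at 22.3% and 23.3%. Without T1 48 h replicate 1 the count of called members was 12, and in a fit to the 48 h groups alone it was 48. Shares over all genes were not recorded for these alternative fits.

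The 6 genes lower in T1 at 48 h differed by less than those of 1 h. Virad05G0057100 stood at 18.4, 13.3 and 14.7 in T1 and at 28.1, 30.1 and 31.7 in T2 (difference -0.92, SE 0.20, adjusted p = 0.00142 in limma's test). Virad05G0202400 was at 25.9, 25.3 and 27.8 in T1 and 50.3, 58.9 and 49.7 in T2 (-0.98, SE 0.26, adjusted p = 0.00652). Virad08G0294200 was at 43.1, 48.0 and 67.6 in T1 and 113, 95.1 and 111 in T2 (-1.02, SE 0.27, adjusted p = 0.00669). In none of these 3 did a T1 library reach the level of a T2 library. Virad10G0218800 and Virad02G0028000 differed by -1.07 (adjusted p = 0.04) and -0.68 (adjusted p = 0.033), and Virad10G0218800 missed the threshold without any 1 library other than T1 48 h replicate 3, and Virad02G0028000 without any 1 library of the 2 groups (adjusted p up to 0.158 and 0.0818). Of the 6, 5 had also been called lower at 1 h. So had 5 of the 15 called higher in T1 at 48 h, and 53 of all 110 members. At 24 h the 2 genes lower in T1 were Virad09G0110600 (-1.70, SE 0.48, adjusted p = 0.0492) and Virad07G0051000 (-0.67, SE 0.16, adjusted p = 0.0203). Both missed the threshold in the fit to the 24 h groups alone (0.249 and 0.0983) and without T2 24 h replicate 1 (0.318 and 0.111), among other libraries.

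The largest differences of the whole set lay in 5 members with neighbouring IDs on chromosome 7, Virad07G0204600, Virad07G0204700, Virad07G0204800, Virad07G0205100 and Virad07G0205200. In T2 they peaked at 3 h and then stood lower. In T1 they rose up to 6 h, were lower at 12 h and stood high at 24 and 48 h. Their differences at 6 h, T1 minus T2, were 2.24 to 3.35 and not called (adjusted p of 0.162 to 0.2 in limma's test). Virad07G0204600 was at 975, 4538 and 580.3 in T2 at 3 h, at 143, 143 and 254 at 24 h and at 123, 118 and 96.1 at 48 h. In T1 it was at 263, 646 and 1114 at 3 h, at 6208, 2155 and 1467 at 24 h and at 2247, 1909 and 3332 at 48 h. No T1 library came near a T2 library at the last 2 times. The difference was 3.95 at 24 h (SE 0.68, adjusted p = 0.00122 in limma's test) and 4.43 at 48 h (SE 0.68, adjusted p = 4.13e-05).

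Virad07G0204800 had the widest gap of the 5. It was at 1928, 362 and 133 in T1 and at 8.25, 5.54 and 11.7 in T2 at 24 h, a difference of 5.63 (SE 0.88, adjusted p = 0.000429). At 48 h it was at 623, 422 and 865 in T1 and at 13.9, 6.59 and 11.8 in T2, a difference of 5.75 (SE 0.88, adjusted p = 4.13e-05). Virad07G0204700, Virad07G0205100 and Virad07G0205200 differed by 4.44, 4.80 and 4.14 at 24 h (adjusted p = 0.000269, 0.00167 and 0.00111) and by 5.10, 5.60 and 4.58 at 48 h (adjusted p = 5.13e-06, 4.13e-05 and 4.13e-05). T1 24 h replicate 1, the library with the most Pt signal, was the highest of its group in all 5, and the part of Pt signal in this result was not tested. Without it the 24 h differences of Virad07G0204700, Virad07G0204800 and Virad07G0205100 were 3.82, 4.59 and 4.01, with adjusted p of 0.00766, 0.0136 and 0.0388. All 5 genes stayed called at both times under each of the 13 alternatives tried, with adjusted p of at most 0.0394 at 24 h and 0.0009 at 48 h. These 5 made up 5 of the 7 members called higher in T1 at 24 h and 5 of the 15 at 48 h.

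The stretch was not limited to the members, and the genes around it were looked at after these values had been seen. Virad07G0204500, Virad07G0204900, Virad07G0205300 and Virad07G0205400 had courses of a like shape and missed the rule because at least 1 change from 0 h fell under 0.5. Their differences at 48 h were 4.28, 4.45, 4.53 and 3.81 (adjusted p = 0.000563, 1.16e-05, 4.09e-05 and 2.62e-05). Virad07G0205000 was listed at 0 in every library. The sources used here do not say how reads matching several near-identical genes were counted, so the split of signal among these neighbours is uncertain. The T1 libraries were uneven in these genes at 0 h already. Virad07G0204600 stood at 206, 46.4 and 179 in T1 and at 24.0, 59.0 and 16.1 in T2. The 5 members differed by 1.53 to 2.18 at 0 h, with adjusted p of 0.0635 to 0.242, and were not called. T1 0 h replicate 2, the library that stood apart from its group, was the low one in each of the 5. Without it 4 of the 5 were called higher in T1 before the last salt. Virad07G0204600, Virad07G0204700, Virad07G0205100 and Virad07G0205200 then differed by 2.71, 2.43, 2.57 and 2.93 (adjusted p = 0.00578, 0.00649, 0.0321 and 0.00385), and Virad07G0204800 by 2.48 (adjusted p = 0.0562). Virad07G0205200 was also called without T2 0 h replicate 2 (2.81, adjusted p = 0.0415). Over all alternatives the differences of the 5 at 0 h were above 0, the lowest being 0.94 for Virad07G0204700 without T1 0 h replicate 1 (adjusted p = 0.637).

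**Figure D5:**
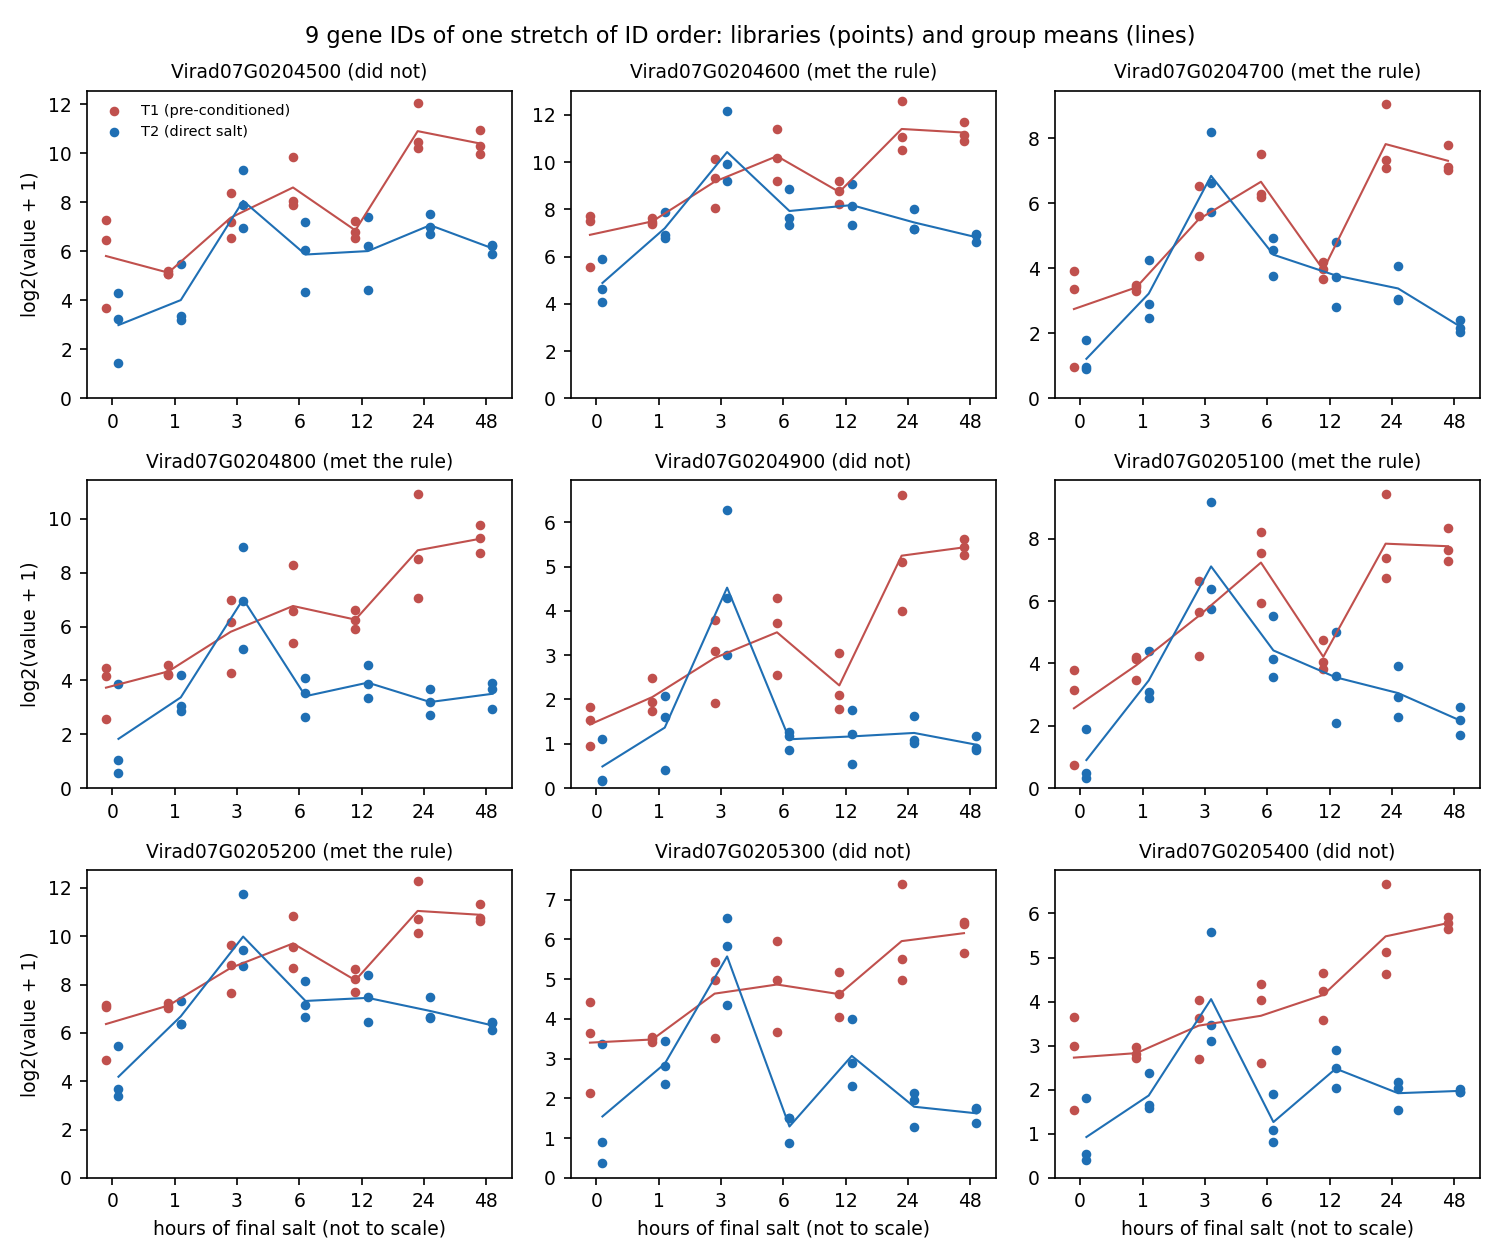
Values as log2(value + 1) of 9 gene IDs of the stretch on chromosome 7 in each library (points) and group means (lines) in T1 (red) and T2 (blue), with time not to scale and each title saying whether the gene met the rule. In all 9 the T2 mean is highest at 3 h and the T1 libraries lie above the T2 libraries at 24 and 48 h.

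At 0 h, after the recovery of the T1 seedlings and before the last salt, few members differed. The rule measured every rise from these 0 h means, so genes still raised in T1 at 0 h were less likely to become members. No return to the unsalted level is read from the counts and shares below. Limma called 2 of 110, both lower in T1, where 4.75% of all genes were called, 1.85% higher and 2.9% lower. Of the members, 21 had an unadjusted p under 0.05, a threshold for which no share of all genes was recorded. The median difference was -0.09, against -0.04 over all genes, and 82 members differed by at most 0.5. Virad02G0107500 stood at 5.75, 9.31 and 8.26 in T1 and at 14.1, 10.1 and 13.9 in T2 (-0.65, SE 0.17, adjusted p = 0.0273). Virad07G0051000 was at 24.8, 26.5 and 30.9 in T1 and at 41.98, 42.6 and 39.7 in T2 (-0.58, SE 0.16, adjusted p = 0.0374). The first salt of T1 lasted 24 h, and no leaf was sampled during it. As a share of the T2 change from 0 to 24 h, the 0 h difference had a median of -7.75% with quartiles of -29.2% and 6.23%. That share uses the T2 0 h libraries on both sides and carries no test. Shares over all genes were not recorded for the alternative fits, in which the count depended on single libraries. It was 25, of which 10 were higher and 15 lower, without T1 0 h replicate 2. It was 0 without T1 0 h replicates 1 or 3 or T2 0 h replicate 3, 1 (higher) without T2 0 h replicate 1, and 0 in a fit to the 0 h groups alone. Virad02G0107500 and Virad07G0051000 missed the threshold in that fit (adjusted p = 0.528 and 0.52) and without T1 0 h replicate 1 (0.269 and 0.242).

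The later steps within each treatment were tested as well. The rule did not use the differences between later groups, but it set a floor for both ends of each step. Shares over all genes are again given for scale only. The steps from 12 to 24 h and from 24 to 48 h share the 24 h libraries, so a fall and a rise there are not separate results. From 12 to 24 h more members fell than rose in both treatments. In T2 67 of 110 were called lower and 2 higher, with a median of -0.94. Over all genes 39.2% were called in T2, 20.6% higher and 18.6% lower. In T1 50 were called lower and 19 higher, with a median of -0.46 and 37 changes above 0. Over all genes 41.5% were called in T1, 20.9% higher and 20.6% lower. The 67 and the 50 shared 48 genes, 71.6% of the first list and 96% of the second. The same overlap over all genes was not recorded, so it is not read as particular to the members. Virad11G0075700 fell most in both treatments. It stood at 524, 426 and 617 at 12 h and at 22.4, 4.53 and 10.7 at 24 h in T2, a change of -5.50 (SE 0.41, adjusted p = 3.29e-12 in limma's test). In T1 it was at 393, 430.02 and 467 and then at 2.97, 3.61 and 7.16, a change of -6.34 (adjusted p = 1.18e-13). This gene and Virad09G0110600 had also risen most from 1 to 12 h, by 6.65 and 6.37 in T2 and by 6.91 and 6.78 in T1. Both genes had their highest group mean at 12 h in either treatment. Virad05G0140600 fell second most in T2, by 4.96 on the log2 scale (adjusted p = 2.4e-09).

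Genes that went the other way from 12 to 24 h were few in T2. Virad05G0054800 rose by 1.45 (SE 0.32, adjusted p = 0.000526) and Virad08G0211500 by 1.501 (SE 0.54, adjusted p = 0.0257), from 15.4, 15.6 and 23.0 to 53.8, 39.1 and 66.2. In T1 Virad08G0211500 rose from 4.57, 4.26 and 2.37 to 68.0, 54.5 and 65.9, a change of 3.78 (SE 0.54, adjusted p = 8.51e-07). Its T2 call was lost when replicate 1 or 2 at 12 h or replicate 1 or 3 at 24 h was left out, at adjusted p of up to 0.0927, and with every library at the same total (0.0747). The 5 genes of the chromosome 7 stretch were among the 19 that rose in T1.

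From 24 to 48 h nearly all called members rose. In T2 60 were called higher and 2 lower, with a median of 0.97. Over all genes 30.2% were called in T2, 15% higher and 15.2% lower. In T1 68 were called higher and 1 lower, also with a median of 0.97, while 37% of all genes were called, 20.5% higher and 16.5% lower. The lists of risen members shared 51 genes, 85% of the first and 75% of the second, and this overlap was not recorded over all genes either. Virad07G0095200 rose most in T2, from 0.294, 0.406 and 1.54 to 112, 103 and 80.3, a change of 5.89 (SE 0.65, adjusted p = 8.69e-08). In T1 it rose from 1.60, 0.996 and 2.12 to 73.8, 67.2 and 49.9, a change of 4.66 (adjusted p = 2.28e-06). Virad07G0041700 was the exception in both treatments, at -0.61 in T2 (adjusted p = 0.00498) and -0.41 in T1 (adjusted p = 0.0446). It stood at 149, 152 and 150.3 at 24 h and 102, 97.4 and 95.9 at 48 h in T2. Its T1 call was lost without T1 24 h replicates 2 or 3 or any T1 48 h library, and at the same total (adjusted p up to 0.401). Virad08G0025400 was the second to fall in T2 (-0.98, SE 0.28, adjusted p = 0.00811), a call lost without T2 24 h replicate 3 or T2 48 h replicate 3 (0.0575 and 0.0709).

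From 1 to 12 h the members did not move as one. In T2 36 were called higher and 28 lower, while 47.6% of all genes were called, 21.5% higher and 26% lower. In T1 43 were called higher and 9 lower, while 40.4% of all genes were called, 20% higher and 20.4% lower. The T1 balance was 31 higher and 15 lower without T1 1 h replicate 1. With equal column totals, the median of all genes was 0.29 in T2 and 0.43 in T1 for this step, and the balance of the members was 50 higher and 23 lower in T2 and 71 and 2 in T1. Virad07G0129300 and Virad04G0012800 fell most in T2, by 4.76 and 3.76 on the log2 scale (adjusted p = 8.64e-10 and 9.85e-09). Virad04G0012800 went from 41.3, 40.8 and 32.7 at 1 h to 1.92, 2.15 and 1.58 at 12 h. In T1 it went from 1.02, 8.81 and 13.1 to 0.882, 0.501 and 0.876, a change of -1.90 (SE 0.42, adjusted p = 0.000488), or -2.75 without T1 1 h replicate 1, and missed the threshold in the fit to the 2 groups alone (0.0768).

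Tests of whether a step differed between T1 and T2 were added after the data were seen. The step from 1 to 12 h differed in 12 members, all with the higher change in T1, where 1.31% of all genes were called 1.12% in that direction and 0.192% in the other. Virad09G0048400 stood at 695, 1007 and 760.3 in T2 and at 60.7, 143 and 177 in T1 at 1 h. At 12 h it was at 192, 145 and 146 in T2 and at 133, 146 and 159.7 in T1, so that the treatments differed at the first time and overlapped at the second. Its steps differed by 2.67 (SE 0.40, adjusted p = 0.000343). Without T1 1 h replicate 1 the count was 3, and the difference for Virad09G0048400 was 2.21. It was also lower without T1 12 h replicates 1 or 2 or T2 12 h replicate 1, at 7, 6 and 6. The step from 12 to 24 h differed in 1 member (0.172% of all genes, 0.101% with the higher change in T1). An unadjusted p under 0.05 was found in 37 members, and the share of all genes at that threshold was not recorded. The step from 24 to 48 h differed in 4, again higher in T1 (7.4% of all genes, 5.56% in that direction).

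T1 at 24 h and T2 at 48 h have the same summed hours in salt, with and without the interruption. Most members were lower in T1 at 24 h. Of the 110, 63 were called lower and 6 higher, with a median difference of -1.04. Over all genes 28.5% were called, 13.4% higher and 15% lower. Virad09G0048400 stood at 15.1, 13.2 and 9.18 in T1 at 24 h and at 236, 245 and 295 in T2 at 48 h (-4.28, SE 0.28, adjusted p = 3.68e-12 in limma's test). Virad07G0095200 differed by -5.29 (SE 0.65, adjusted p = 5.6e-07). The 6 higher genes included the 5 of the chromosome 7 stretch, led by Virad07G0205100 at 5.68 (SE 0.86, adjusted p = 1.22e-05) and Virad07G0204700 at 5.62 (SE 0.66, adjusted p = 2.56e-07). The T1 libraries at 24 h thus stood closer to T2 at 24 h, with a median difference of -0.05, than to T2 at 48 h. These contrasts share the T1 libraries, and what separates them is the T2 step from 24 to 48 h tested above.

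By the chromosome prefix of their IDs, 22 of the 110 genes lay on chromosome 7, which is 20% of the members where 12.5% of the genes tested lie, and 5 of the 22 belong to the stretch whose split of signal is uncertain. Chromosome 8 held 15 (13.6% of the members and 16.4% of the genes tested) and chromosome 6 held 14 (12.7% and 10.6%). Chromosome 10 held 13 (11.8% and 10.5%) and chromosome 5 held 11 (10% and 6.46%). These shares are given without a test, and 0 members carried an organelle prefix. In the order of IDs, 9 members lay next to another member, in 4 runs. On chromosome 6 the neighbours Virad06G0226400 and Virad06G0226500 both peaked at 6 h. They stood at 1893, 1135 and 1461 and at 1156, 819.6 and 1026 in T2 at that time. In T1 they were at 1079, 812 and 1099.6 and at 826, 569.8 and 796. On chromosome 7 Virad07G0072400 and Virad07G0072500 were neighbours, and their T2 values were highest at 1 h, at 8.76, 11.7 and 9.78 and at 159, 299.8 and 207. The other 2 runs belong to the stretch described above.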

How the data were processed

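Poly(A) RNA of leaves was sequenced on the DNBSEQ platform, per the labels' protocols. The submitters' processing notes name fastp 1.0.1, HISAT2 2.2.1, featureCounts (no version) and DESeq2 1.48.2 without saying what each did. The genome build and annotation were not given in the sources used here. One table was deposited by the authors, with an expression signal for each gene in each library. It is called TPM, but the columns do not share 1 total, so the deposited values are treated as a normalized signal with a scaling that the sources do not describe, and the tests planned for TPM values were kept. Read counts are not used here and absolute depth is unknown, so values carry no counting intervals or detection limits. The steps between low values came from 1324 rarely seen genes. In these, 97.0% of 4309 low values lay within 0.1 of a whole multiple of the gene's smallest step when libraries had their own factors, against 20.3% otherwise.

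Values were compared as log2(value + 1), a scale that understates the change of genes near 0. Group means over all 42 libraries were estimated in 1 linear model for the 19753 genes that reached 1 in 3 or more libraries, with limma 3.58.1 in R 4.3.3 (empirical Bayes with a robust trend). P-values are two-sided and Benjamini-Hochberg adjusted over these genes within each contrast, and genes were called at an adjusted p under 0.05. Descriptions and figures used Python 3.11.15, numpy 2.4.6, pandas 2.3.3, scipy 1.17.1 and matplotlib 3.10.9.

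The members, the rule for naming genes and the lists were chosen with earlier results of these data known. Genes were named if they had the 6 highest smallest changes, the 6 highest levels, the largest called differences in a contrast (up to 5 in each direction at 0 and 48 h, 3 at other times and 2 in a step), the 3 smallest ranges, a place next to the threshold, a neighbouring member or an organelle prefix (0 members). The 3 tests of whether a step differed between treatments and the flanking genes on chromosome 7 were added after the data were seen, as was the choice of which named genes to show in full. Lists of genes by product were not run, since the IDs carry no names. Alternatives were a pseudocount of 0.1, no filter, median-of-ratios scaling, the same total for every library, quantile normalization, the replicate number as a block, a fit restricted to the groups being compared, and the omission of each library in turn. Same-numbered libraries deviated together, with each of 3 correlations over 0.1, in 1 contrast, T1 24 h against T2 48 h (r of 0.135 to 0.53). There the count was 69 with and without the block.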

Additional observations from a re-analysis of the deposited data

Results flagged for a closer look

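Differences between T1 and T2 in a later step, each by its own test in limma over all genes, brought these results here. The step from 1 to 12 h differed in 12 of the 110 genes. Virad07G0129300 had steps that differed by 3.27 (SE 0.67, adjusted p = 0.00914) and Virad09G0048400 by 2.67 (SE 0.40, adjusted p = 0.000343), both higher in T1. Both genes had been lower in T1 at 1 h, and without T1 1 h replicate 1 the differences were 2.19 and 2.21. For Virad07G0129300 the adjusted p was 0.205 when only the groups compared were fitted and 0.0556 with a pseudocount of 0.1.

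The step from 12 to 24 h differed in 1 gene, Virad07G0204700 of the stretch on chromosome 7, by 4.27 (SE 0.93, adjusted p = 0.048). It missed the threshold with a pseudocount of 0.1, with the replicate block (adjusted p = 0.0619), in the fit to only the groups compared and with each of 8 of the 12 libraries of these groups left out, with adjusted p of up to 0.203.

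The step from 24 to 48 h differed in 4 genes. Virad08G0248800 differed by 3.66 (SE 0.73, adjusted p = 0.00311). It stood at 164, 36.1 and 31.0 in T1 and at 6.08, 4.46 and 3.51 in T2 at 48 h, after at most 1.66 and 2.30 at 24 h. Virad10G0154100 differed by 1.64 (SE 0.51, adjusted p = 0.0424) and missed the threshold after quantile normalization, with no filter and with each of 8 of the 12 libraries left out, with adjusted p of up to 0.149.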

How the results depend on the processing

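Counts of members at 0 h were 5 with a pseudocount of 0.1, 1 with median-of-ratios scaling, 1 after quantile normalization and 0 in a fit restricted to the groups being compared. That fit gave 12 at 1 h, 48 at 48 h, and 3, 2 and 13 for the differing steps from 1 to 12, 12 to 24 and 24 to 48 h. The first 2 of these were 6 and 0 with a pseudocount of 0.1. Bringing every library to the same total gave 2 at 3 h. The rule itself found 184 genes with a pseudocount of 0.1 and 167 at the same total, all 110 among them in both cases. With 1 library left out, counts ran from 0 to 25 at 0 h, 36 to 57 at 1 h, 0 to 2 at 3 h, 0 to 0 at 6 h, 3 to 10 at 12 h, 5 to 10 at 24 h and 12 to 22 at 48 h. For the T2 steps from 1 to 12, 12 to 24 and 24 to 48 h they ran from 62 to 64, 60 to 66 and 52 to 60, and for the T1 steps from 45 to 53, 61 to 65 and 56 to 66. T1 24 h against T2 48 h gave 62 to 69, the differing steps 3 to 17, 0 to 1 and 1 to 7, and the rule 97 to 125. Of the 110 genes, 55 met the rule whichever library was left out. Fewer libraries in a group can by themselves lower a count. Shares of all genes called were not recorded for any alternative.

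Over 55 single-gene results, 745 alternative fits kept the direction, and 92 of them missed the threshold. Apart from T1 24 h against T2 48 h, replicate numbers did not pair the libraries in any contrast. The replicate block gave 0 genes for the differing step from 12 to 24 h and otherwise moved no count by more than 1.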
